A study of Mus musculus with 18 samples.

Results

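Postnatal maturation of the healthy spinal cord was followed in whole cords of control mice between postnatal day 6 (P6) and postnatal day 10 (P10). Gene loci were taken that carried 1 gene symbol, had a quantification status of OK in both groups, and reached 5 FPKM (a read level per length of transcript and per depth of the library) in at least 1 of the 2 groups. This left 8825 of 58570 loci, with 8694 distinct symbols, of which 7843 loci were protein-coding in GENCODE M21. The controls are heterozygous mice of the SMNdelta7 line, a mouse model of spinal muscular atrophy (SMA). In that line affected pups lack the mouse Smn1 gene and carry human SMN transgenes, so the controls are transgenic mice with 1 functional Smn1 copy and not wild-type mice. Pups were of the same strain in all groups, and the labels do not say whether each library came from a separate animal. The study held 18 libraries in 6 groups of 3, control and homozygous SMA cords at P2, P6 and P10. The control groups at P6 and P10 carry this account, control P2 sets the earlier step beside the later one, and the SMA groups at P6 and P10 serve as a second look at the same interval.

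The weeks after birth are when the rodent spinal cord is wired for mature movement. Oligodendrocytes wrap axons in myelin, a stack of membrane rich in cholesterol, galactolipids and a small set of proteins. Astrocytes acquire potassium, water and glutamate handling, and neurons trade the cytoskeleton, ion channels and transmitter receptors of growing cells for adult forms.

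The deposited values hold 1 FPKM per group with the 3 libraries already combined, together with a lower and an upper bound of a model interval. Every level below is therefore the authors' group value, with no standard deviation or replicate number of its own, and the bracketed range after a level is the deposited interval. Estimated fragments per group ran from 6881671 to 7386338, and the distance from the FPKM to its upper bound had a median of 55.7% to 57.0% of the FPKM over the loci described here. Differences are given as log2((FPKM at P10 + 1)/(FPKM at P6 + 1)), which understates the change of low genes, with a standard error (SE) derived from the upper bounds. A gene is said to have risen or fallen only where a two-sided z test of that difference, adjusted over 19974 loci by the Benjamini-Hochberg method, gave an adjusted p under 0.05. In bulk tissue fewer cells of a type and less RNA per cell cannot be told apart.

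Smn1 stood at 2.70, 4.46 and 3.54 FPKM in the controls at P2, P6 and P10. In the groups labelled SMA it was 0.0210 at P2, listed at 0 at P6, and 2.82 at P10, so the group labelled SMA P10 went against its label by this gene and is named as labelled throughout. The tissue label held against its markers. Snap25 of neurons was 118 FPKM at P6 and 165 at P10, Aqp4 of astrocytes 135 and 200, and the forebrain gene Emx1 only 0.0483 and 0.117. Skeletal muscle and brown fat markers were low and lower at P10: the muscle actin Acta1 went from 3.58 to 0.686 FPKM and the brown fat uncoupling protein Ucp1 from 1.05 to 0.251. Y-linked genes differed between the control groups, with Ddx3y at 17.9, 4.92 and 13.1 FPKM and Eif2s3y at 33.2, 10.98 and 20.1 at P2, P6 and P10. The sex of the pooled animals is not given in the labels, and its part in other differences was not tested.

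Most genes moved little between P6 and P10, and the few large differences were mostly increases. The median log2 ratio was 0.06 over the 8825 loci and 0.07 over the protein-coding ones, and 90.3% of loci lay within 1.5-fold. Of the protein-coding loci 123 (1.57%) were at least 2-fold higher at P10 and 22 (0.281%) at least 2-fold lower. Of the 123, 41 reached 5 FPKM only at P10, 3 were the Y-linked Ddx3y, Kdm5d and Uty, and 2 were separate loci of the glutathione synthetase gene Gss. Over all protein-coding loci 486 reached 5 FPKM only at P10 and 260 only at P6. The direction of their ratios followed from the limit, and this holds within the gene lists below. Near the limit of 5 FPKM, Tbc1d32 was kept with 4.18 FPKM at P6 and 5.01 at P10, and Lix1, whose higher value fell short of 5, was left out with 3.98 FPKM at P10.

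By the z test 14 loci rose (0.0701% of those tested) and 8 fell (0.0401%). Of the protein-coding loci at 5 FPKM or more in at least 1 group 9 rose (0.115%) and 1 fell (0.0128%). Intervals that did not overlap were found for 31 higher loci (0.395%) and 1 lower locus (0.0128%). The limit admits some loci only through the group where they are high. Among the 7097 protein-coding loci at 5 FPKM or more in both groups 6 rose and 1 fell. Intervals did not overlap for 18 higher loci and 1 lower locus of these 7097. Over all loci tested 11 of the called were protein-coding. The 10 that rose were Mal, Ermn, Gsn, Fa2h, Gpd1, Sec14l5, Tmem88b, Cldn11, Gjb1 and Opalin, the last one below the 5 FPKM limit. The 1 that fell was Cxadr. At an unadjusted p under 0.05 there were 151 higher and 21 lower protein-coding loci among 11843 tested. The z values had a robust standard deviation of 0.354, so the deposited intervals were wide against the differences between groups. On data simulated with the standard errors that the test itself assumes, it called 22 of 50 loci with a true log2 ratio of 2. With a true ratio of 1 it called 4 of 50. Because the test's own errors went into it, the simulation cannot check them, and a gene that was not called may still differ.

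**Figure D1:**
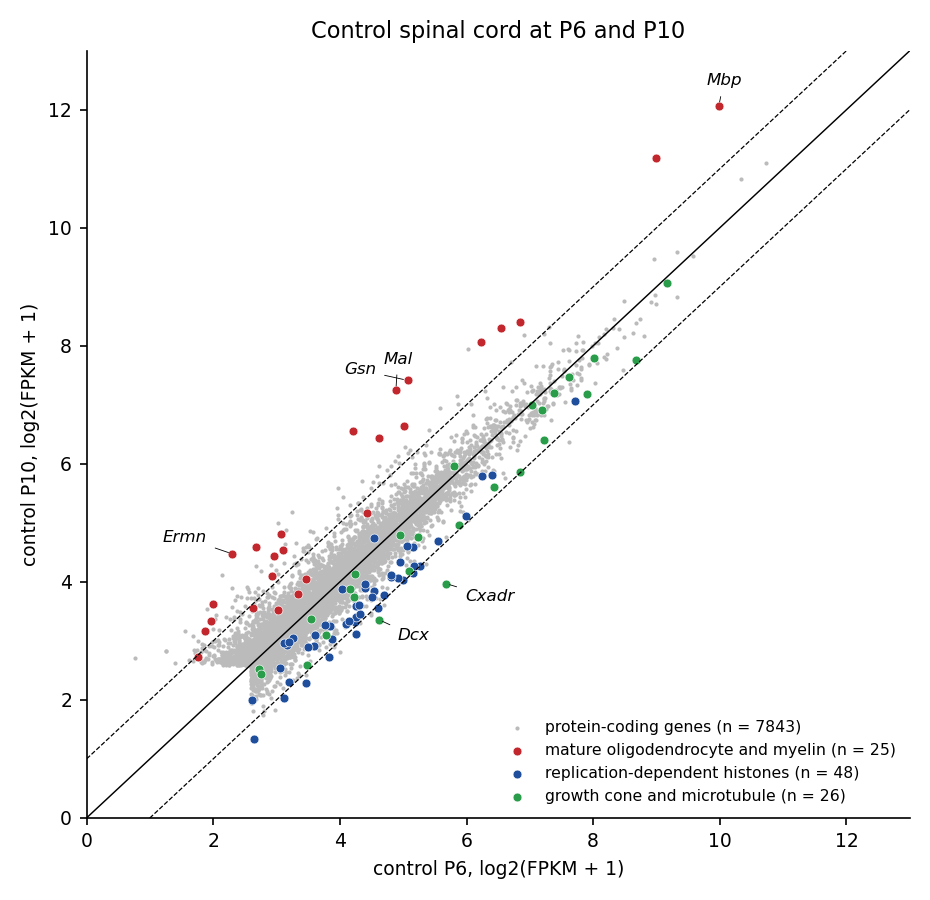
Level of each protein-coding gene in control cord at P6 (x axis) and P10 (y axis), both as log2(FPKM + 1). The solid line marks equal levels and the dashed lines 2-fold differences. The 25 myelin genes (red) lie above the solid line and 47 of the 48 histone genes (blue) lie below it.

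Myelin genes had the highest median ratio of the 60 gene lists that held a gene at 5 FPKM or more. All 25 listed genes of mature oligodendrocytes and myelin at 5 FPKM or more were higher at P10, with a median log2 ratio of 1.63, and 19 of them were at least 2-fold higher, against 1.57% of protein-coding loci in all. The list's share of the summed FPKM of protein-coding loci was 0.209% at P2, 1.20% at P6 and 4.52% at P10. Of the 25 genes 20 reached 5 FPKM in both groups and 5 only at P10, so the direction of those 5 followed from the limit. Of 33 listed genes 29 had a locus of their own, and those beyond the 25 lay below 5 FPKM. A further 4 listed genes shared a locus with another gene and gave no value.

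Mal, a small membrane protein of compact myelin on chromosome 2 (127633226 to 127656695, GRCm38, minus strand), stood at 5.62 FPKM at P2, 28.5 (17.2 to 39.8) at P6 and 151 (86.4 to 216) at P10. Its intervals at P6 and P10 did not overlap, and it rose by 2.36 ± 0.42 (SE) on the log2 scale, with an adjusted p of 5.71e-05 by the z test. Gsn, the actin-severing protein gelsolin, which oligodendrocytes use as they wrap, was 7.56, 32.5 and 170 FPKM and rose by 2.35 ± 0.48 (adjusted p 0.00184). Ermn, the oligodendrocyte cytoskeletal protein ermin, was 0.438, 3.93 and 21.2 FPKM and rose by 2.17 ± 0.39 (adjusted p 8.07e-05). The intervals of these 3 genes at P6 and P10 did not overlap.

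Cldn11, the tight junction protein of the myelin sheath, was 15.2, 74.2 (43.0 to 105) and 266 (148 to 384) FPKM at P2, P6 and P10 and rose by 1.83 ± 0.45 (adjusted p 0.0440). Gjb1, the connexin 32 gap junction protein, was 1.14, 5.41 and 23.1 FPKM and rose by 1.91 ± 0.47 (adjusted p 0.0474). Tmem88b, a membrane protein, was 1.97, 7.35 and 27.1 FPKM and rose by 1.75 ± 0.41 (adjusted p 0.0260). The calls of Cldn11 and Gjb1 sat close to the threshold and were lost under 5 other settings, such as no filter on low values, where their adjusted p values were 0.0795 and 0.0857. Opalin, an oligodendrocyte membrane glycoprotein, was 0.0578, 0.423 and 4.34 FPKM and rose by 1.91 ± 0.36 (adjusted p 0.000320). Its P6 level lay below the 1 added to each FPKM, so the ratio and its SE depend on that value. With 0.1 added the z test gave 3.08 ± 0.67 (adjusted p 0.00726), and with none 3.36 ± 0.78 (adjusted p 0.0290).

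The most abundant myelin gene had a wide interval. Mbp, myelin basic protein, was 150 FPKM at P2, 1012 (292 to 1732) at P6 and 4281 (0 to 9866) at P10, a log2 ratio of 2.08 ± 1.09 that was not called. It moved from rank 132 among the protein-coding loci at P2 to rank 3 at P6 and rank 1 at P10. It thus passed Lars2 and mt-Nd6, which led the list at P6 with 1691 and 1294 FPKM.

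Other sheath proteins lay between these extremes. Mog, the myelin oligodendrocyte glycoprotein of the outer lamella, was 2.07, 17.4 and 92.6 FPKM (log2 ratio 2.34 ± 0.80). Mag, an adhesion protein of the inner sheath, was 11.1, 92.4 and 315 FPKM (1.76 ± 0.68), and Cnp, an enzyme of the cytoplasmic channels of myelin, was 33.8, 114 and 336 FPKM (1.55 ± 0.69). None of the 3 passed the test. Myrf, the transcription factor that drives myelin genes, was 2.59, 7.62 and 22.1 FPKM (1.42 ± 0.43, adjusted p 0.481). The lowest ratios in the list were those of Ndrg1 (9.09 to 12.9 FPKM, 0.46), Fah (7.10 to 10.5, 0.50) and Qdpr (9.998 to 15.5, 0.59), of which Fah and Qdpr encode enzymes of aromatic amino acid and pterin metabolism.

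**Figure D2:**
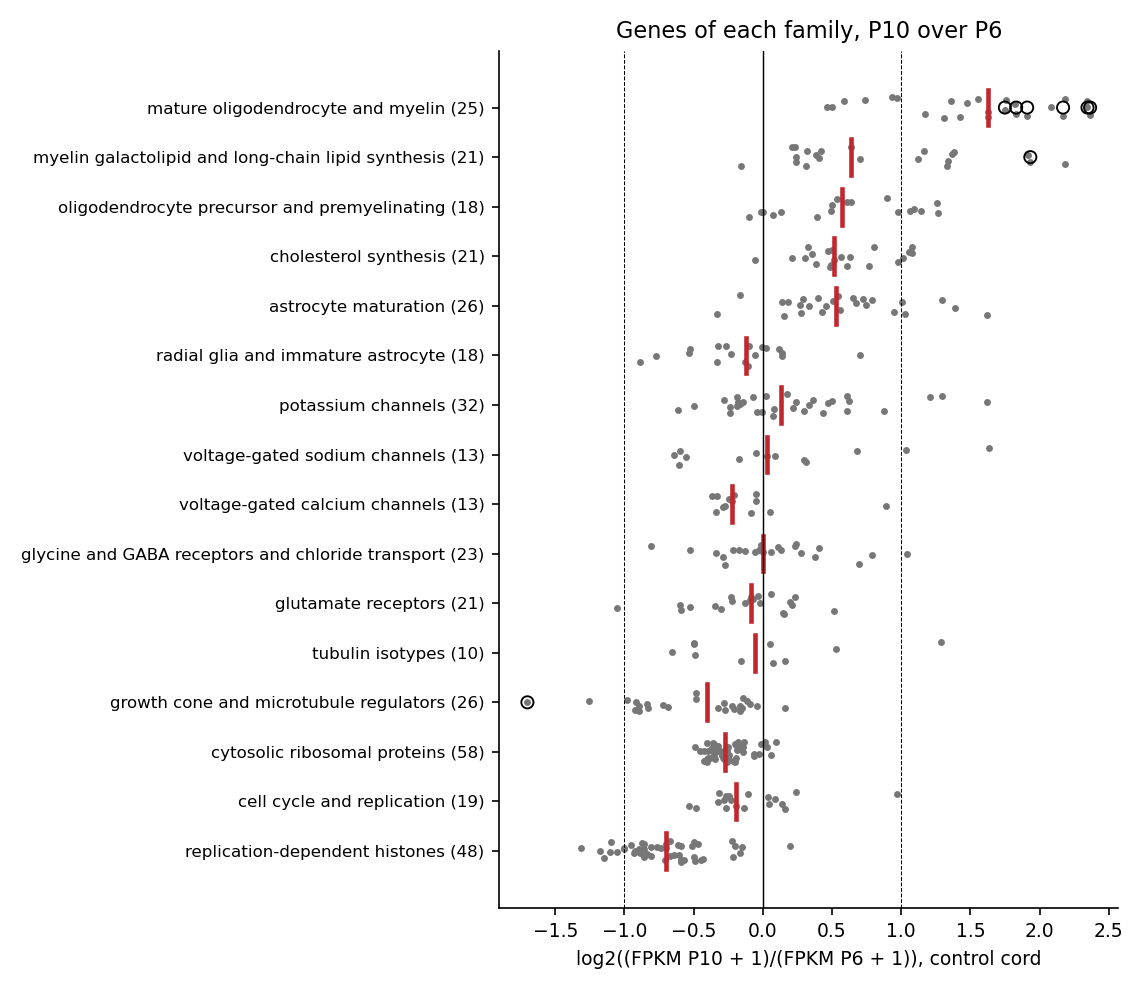
Log2 ratio of P10 over P6 in control cord (x axis) for each gene of 16 families, with the number of genes in brackets. Each grey point is a gene, the red bar is the family's median, black circles mark genes called by the z test, and the dashed lines mark 2-fold. Myelin genes form the highest row and histone genes the lowest.

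Enzymes that build myelin lipids were also higher, with a smaller median than the sheath proteins. Of 21 genes for galactolipid and long-chain lipid synthesis 20 had a ratio above 0, the median was 0.64, and 9 were at least 2-fold higher. This list shares a gene with the myelin list. Fa2h, which adds the 2-hydroxyl group of myelin galactolipids (chromosome 8, 111345135 to 111393824, GRCm38, minus strand), was 2.04, 8.51 (4.46 to 12.6) and 35.3 (20.9 to 49.8) FPKM at P2, P6 and P10. It rose by 1.93 ± 0.43 (adjusted p 0.0108). Ugt8a, the ceramide galactosyltransferase that makes galactocerebroside, was 10.8, 63.9 and 244 FPKM (1.92 ± 0.51, adjusted p 0.109), and Gal3st1, which sulfates that lipid, was 2.34, 4.80 and 14.1 FPKM (1.38 ± 0.40, adjusted p 0.318).

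Some genes of the ceramide and fatty acid branch were at least 2-fold higher, without a call, and others were near level. Cers2, the ceramide synthase for very long chains, was 17.7, 23.6 and 61.2 FPKM (log2 ratio 1.34 ± 0.75). Elovl1 and Elovl7, which lengthen fatty acids, were 14.7 and 34.2 FPKM (1.17) and 10.5 and 27.9 FPKM (1.33) at P6 and P10. Scd1, the stearoyl-CoA desaturase, was 33.4 and 73.9 FPKM (1.12). Fasn, the fatty acid synthase that supplies the common precursor, was 38.5 and 51.2 FPKM, a ratio of 0.40 ± 0.67 within its error. Acaca (0.24), Fads1 (0.23) and Fads2 (0.21) had small ratios, and Sgms1 was the lowest at -0.16. Of the 21 genes of the lipid list 10 lay within 1.5-fold.

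Cholesterol synthesis genes were higher at P10 as a set of modest differences. The sterol pathway runs from acetyl-CoA through mevalonate and squalene to cholesterol, and its genes are classically switched on together by the SREBP2 transcription factor. Of 21 genes 20 had a ratio above 0, where 61.1% of protein-coding loci did, with a median of 0.52, and 4 were at least 2-fold higher. None was called. Among the 4 were Lss, lanosterol synthase (19.7 to 42.5 FPKM, 1.08 ± 0.83), and Idi1, of the isoprenoid step (26.7 to 55.0, 1.01 ± 0.40).

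Hmgcs1, which makes hydroxymethylglutaryl-CoA and was the most abundant of the set, stood at 131, 149 and 294 FPKM at P2, P6 and P10 (0.98 ± 0.49). Its level at P6 was close to that at P2 and lay below that at P10. Pmvk, phosphomevalonate kinase, alone lay below 0, at -0.05. The median of the set from P2 to P6 was 0.07, against 0.52 from P6 to P10. These 2 steps share the P6 group, and no protein-coding gene was called in the z test of the later minus the earlier step.

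Promoters of the sterol set are shown because most of its genes were higher together and because a CCAAT box, the motif bound by NF-Y, was found in most of them. RefSeq promoter windows (GRCm38.p6, 250 bases before to 50 after a start site) were matched for 15 of the 21 genes. CCAAT on either strand occurred in 14 of these 15, which is 93.3%, against 42.9% of the 6186 protein-coding genes described here that had a window, and Acat2 was the 1 without it. The motifs were chosen with the expression results known, so the counts are a description. The sterol regulatory element letters TCACNCCAC occurred in 1 of the 15, Hmgcs1, against 1.44% of the same 6186 genes, on either strand. Below are the 150 bases that end just before a start site of 5 of the genes, in the direction of transcription, with CCAAT or its complement ATTGG and, in Hmgcs1, the sterol element in capitals.
Hmgcs1 (chr13:119690201-119690350, GRCm38.p6, plus strand): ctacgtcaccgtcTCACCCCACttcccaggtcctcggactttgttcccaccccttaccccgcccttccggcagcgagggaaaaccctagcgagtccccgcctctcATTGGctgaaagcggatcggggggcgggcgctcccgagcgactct
Lss (chr10:76531455-76531604, GRCm38.p6, plus strand): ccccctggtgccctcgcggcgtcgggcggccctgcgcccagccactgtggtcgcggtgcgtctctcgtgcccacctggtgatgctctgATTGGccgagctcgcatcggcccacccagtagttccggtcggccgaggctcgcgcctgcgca
Idi1 (chr13:8885456-8885605, GRCm38.p6, plus strand): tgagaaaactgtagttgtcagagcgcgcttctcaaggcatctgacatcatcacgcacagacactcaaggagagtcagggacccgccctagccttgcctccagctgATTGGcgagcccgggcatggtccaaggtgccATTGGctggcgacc
Msmo1 (chr8:64733579-64733728, GRCm38.p6, minus strand): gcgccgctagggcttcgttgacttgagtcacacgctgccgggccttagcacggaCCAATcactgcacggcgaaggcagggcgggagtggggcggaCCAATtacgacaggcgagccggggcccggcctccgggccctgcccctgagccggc
Cyp51 (chr5:4104698-4104847, GRCm38.p6, minus strand): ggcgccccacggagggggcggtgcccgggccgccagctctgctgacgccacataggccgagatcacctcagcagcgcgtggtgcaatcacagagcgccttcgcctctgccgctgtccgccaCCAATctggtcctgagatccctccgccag

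In these windows Idi1 and Msmo1 each held 2 CCAAT boxes and Hmgcs1, Lss and Cyp51 held 1. A match is no more than the letters being present. Msmo1, the sterol demethylase component, was 39.8 FPKM at P6 and 70.1 at P10 (0.80 ± 0.42), and Cyp51, lanosterol demethylase, 42.1 and 72.6 (0.77 ± 0.78).

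Genes of oligodendrocyte precursors and premyelinating cells differed less than those of mature myelin. Of 18 genes 16 had a ratio above 0, with a median of 0.57, and 5 were at least 2-fold higher. These 5 were Bcas1 (31.5 to 77.1 FPKM, 1.26 ± 0.54) and Enpp6 (10.9 to 27.6, 1.26 ± 0.52), both marks of newly formed oligodendrocytes, Sirt2 (57.2 to 128, 1.15), Sox10, the lineage transcription factor (9.78 to 21.999, 1.09), and Neu4 (2.07 to 5.39, 1.06). Cspg4, the NG2 proteoglycan of precursors, was 4.31 and 5.98 FPKM (0.39 ± 0.38), and Gpr17, a receptor of the transitional stage, was 14.0, 36.2 and 72.4 FPKM at P2, P6 and P10 (0.98 ± 0.45). None was called.

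Astrocyte genes were higher at P10 and radial glial genes were on the whole lower. Of 26 astrocyte maturation genes 24 had a ratio above 0, with a median of 0.53, and 5 were at least 2-fold higher, none of them called. Kcnj10, the Kir4.1 channel that clears potassium, was 6.94, 14.7 (8.71 to 20.6) and 47.1 (27.6 to 66.6) FPKM at P2, P6 and P10. Its intervals at P6 and P10 did not overlap, and its ratio of 1.62 ± 0.41 had an adjusted p of 0.0635, which became 0.0345 when only loci at 5 FPKM or more were tested. Kir4.1 is found in oligodendrocytes as well as astrocytes.

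S100b, a calcium-binding protein of astrocytes and some oligodendrocytes, was 15.6 and 42.5 FPKM at P6 and P10 (1.39 ± 0.66). Ntsr2, a neurotensin receptor of astrocytes, was 14.4 and 36.9 (1.30 ± 0.47). Slc1a2, the GLT-1 glutamate transporter, was 104 and 212 (1.02 ± 0.97), and the astrocyte intermediate filament gene Gfap was 157 (74.5 to 240) and 318 (131 to 504) FPKM (1.01 ± 0.58). The GLAST transporter Slc1a3, which radial glia also carry, went the other way, from 55.1 to 43.5 FPKM (-0.33 ± 0.49).

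Of 18 radial glial and immature astrocyte genes 13 had a ratio below 0, with a median of -0.12. Fabp7, the brain lipid-binding protein of radial glia, was 383, 353 (207 to 500) and 191 (116 to 265) FPKM at P2, P6 and P10, a ratio of -0.89 ± 0.42 that was not called. Tnc, the matrix protein tenascin-C, was 30.7, 19.6 and 11.1 FPKM (-0.77 ± 0.47). Vimentin, encoded by Vim, was 58.2 and 39.9 FPKM at P6 and P10 (-0.53). Prom1 had the highest ratio, with 5.29 and 9.23 FPKM (0.70 ± 0.56).

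Gap junction genes of both glial types tended higher. Of 8 connexin and pannexin genes 7 had a ratio above 0, with a median of 0.65. Connexins of oligodendrocytes led, among them Gjb1 as given above and Gjc3 at 5.37 and 18.4 FPKM (1.60 ± 0.75). The astrocyte connexins followed with Gjb6 (connexin 30) at 5.46 and 9.84 FPKM (0.75 ± 0.55) and Gja1 (connexin 43) at 32.5 and 47.9 (0.54 ± 0.41).

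**Figure D3:**
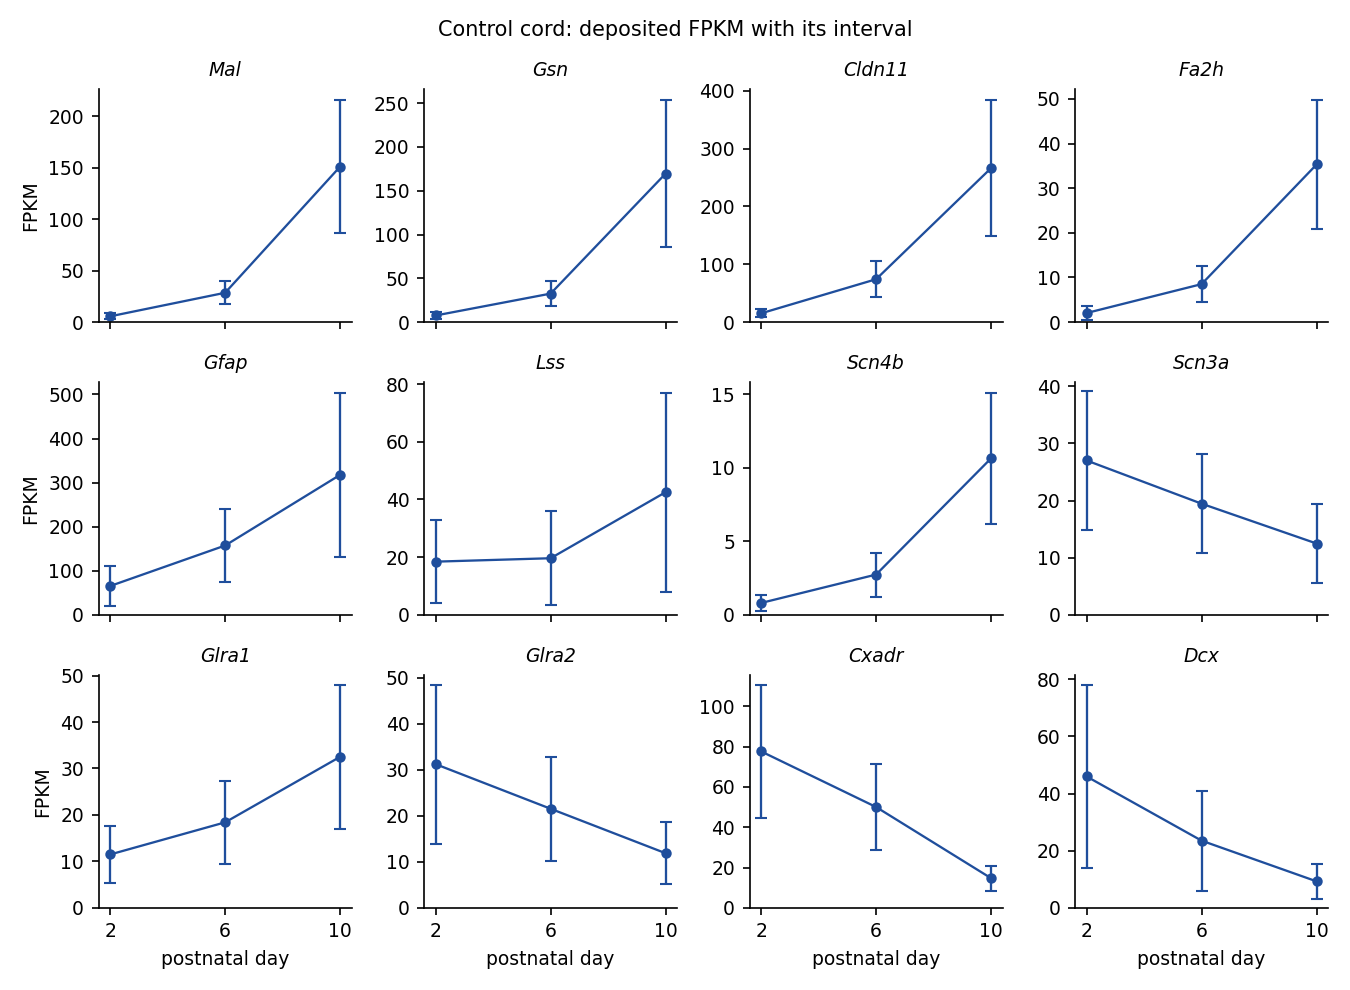
FPKM of 12 genes in control cord (y axis, each panel from 0) at postnatal days 2, 6 and 10 (x axis). Points are the authors' group values and bars their deposited intervals. Mal, Gsn, Cldn11 and Fa2h rise and Cxadr falls from day 6 to day 10, each of them called by the z test. Glra1 is higher and Glra2 and Dcx are lower at day 10, none of them called.

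Genes of cells outside the central nervous system were detected and did not move in 1 direction. Prx, a protein of the peripheral myelin sheath made by Schwann cells, was 2.57, 4.23 and 7.77 FPKM at P2, P6 and P10 (0.75 ± 0.41). Beside the myelin results these values show transcripts of peripheral myelin in the tissue at all 3 ages, and their part in genes that both sheaths share, such as Mal and Gjb1, was not tested. Of 10 sensory ganglion genes 7 had a ratio below 0, and the defining channel Scn10a was 0.550 and 0.241 FPKM.

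Of 16 fibroblast and meningeal genes 11 had a ratio below 0 (median -0.11), and their summed level was 593 FPKM at P6 and 470 at P10 over 23 listed genes. That list holds Nnat, which neurons also express, and without it the sum was 397 FPKM at P6 and 388 at P10. The brain vessel transporter Mfsd2a was 13.1 and 23.5 FPKM (0.80 ± 0.47), and 14 of 16 endothelial genes had a ratio above 0 with a median of 0.28. Microglial genes were near level with a median of 0.14 over 12 genes. Haemoglobin Hba-a1 was 443 and 285 FPKM (-0.64 ± 0.43). None of the skeletal muscle or brown fat genes reached 5 FPKM.

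Axonal ion channels showed opposite differences between members of the same family. Sodium channels pair a pore-forming alpha subunit with beta subunits, and the adult node of Ranvier carries Nav1.6, encoded by Scn8a. Of 13 sodium channel genes 7 had a ratio above 0 and 6 below, with a median of 0.03. The beta subunit Scn4b was 0.816, 2.75 (1.25 to 4.24) and 10.7 (6.196 to 15.1) FPKM at P2, P6 and P10, and its intervals did not overlap. Its ratio of 1.64 ± 0.41 had an adjusted p of 0.0505 by the z test, just past the threshold, and 0.0276 when loci at 5 FPKM or more were tested. Scn4b enters that second test only through its level at P10, so the lower value is no added support. With the deposited counts and their variance the adjusted p was 0.0953.

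The beta subunit Scn2b was also higher (8.64 to 18.7 FPKM, 1.03 ± 0.39). The early beta subunit Scn3b was lower, at 35.6, 24.5 and 15.8 FPKM at P2, P6 and P10 (-0.60 ± 0.42). Among alpha subunits the embryonic form Scn3a was 27.0, 19.5 and 12.5 FPKM (-0.60 ± 0.49) and Scn2a1 61.7, 52.5 and 35.4 (-0.55 ± 0.73). Scn8a was 27.8 and 34.8 FPKM at P6 and P10 (0.31 ± 1.101). None of these passed the test.

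Potassium channels had a median of 0.13 over 32 genes. Apart from Kcnj10, high ratios were found for the juxtaparanodal Kcna1 (Kv1.1) and Kcna2 (Kv1.2). Kcna1 was 6.95 and 17.4 FPKM (1.21 ± 0.78) and Kcna2 was 14.0 and 26.5 (0.87 ± 0.40). The lowest was the pacemaker channel Hcn3, at 8.39 and 5.13 FPKM (-0.62 ± 0.57), beside Hcn2 at 10.9995 and 17.3 (0.61 ± 0.47). Of 23 genes of the node and paranode 17 had a ratio above 0. The adhesion proteins of the paranodal junction and node, Cntnap1 (16.9 to 31.5 FPKM, 0.87) and Nfasc (66.2 to 129, 0.95), were higher, while the membrane skeleton gene Ank3 was level (105 to 109).

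Calcium channels tended lower, with 11 of 13 genes below 0 and a median of -0.22. The highest was the beta subunit Cacnb4, at 12.7, 18.9 and 35.998 FPKM at P2, P6 and P10 (0.89), whose intervals reached 0 and whose SE was 2.36.

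Transmitter receptor genes had subunits on both sides of 0, and none was called. Of 23 genes of glycine and GABA signalling 19 lay within 1.5-fold, and of 21 glutamate receptor genes 18 did, where 91.9% of protein-coding loci did. In the rodent cord the fetal alpha2 subunit of the glycine receptor is known to give way to alpha1 after birth. Here Glra2 was 31.2, 21.5 (10.2 to 32.8) and 11.9 (5.12 to 18.6) FPKM at P2, P6 and P10 (-0.81 ± 0.53 for the later step), and Glra1 was 11.5, 18.4 (9.53 to 27.3) and 32.5 (17.0 to 48.1) (0.79 ± 0.48). Glra2 was the higher of the 2 at P2 and at P6, and Glra1 was the higher at P10, and the intervals of the 2 genes overlapped at P6 and at P10. Neither gene passed the test.

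Over the 23 genes of glycine and GABA signalling the median was 0.00, with 12 above 0 and 11 below. Among GABA-A receptor subunits the ratios were smaller, with Gabra5 at 22.2 and 15.1 FPKM (-0.53) and Gabra2 at 15.3 and 20.6 (0.40). The chloride importer NKCC1, Slc12a2, was higher at 12.1, 18.5 and 39.2 FPKM at P2, P6 and P10 (1.04 ± 0.39), and Slc12a5, the neuronal exporter KCC2, had a ratio of 0.11. The glycine transporter Slc6a9 of glia was 39.1 and 63.8 FPKM (0.69 ± 0.85).

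Of 21 glutamate receptor genes 14 had a ratio below 0, with a median of -0.08. Grm3, the metabotropic receptor mGluR3, was 28.6, 21.6 (9.65 to 33.5) and 9.87 (3.88 to 15.9) FPKM at P2, P6 and P10 (-1.05 ± 0.56). The juvenile NMDA receptor subunit Grin2b was 38.4 and 25.1 FPKM (-0.60 ± 1.45), and Grm5 was 66.0 and 45.6 (-0.52 ± 0.78). Synaptic vesicle genes had a median of 0.16 over 42 genes. Vamp1 (67.5 to 112 FPKM, 0.72), Cplx1 (67.6 to 97.1, 0.52) and Snap25 (0.47) stood on one side, and Syt4 (32.8 to 21.9, -0.56) and Syt5 (11.7 to 6.66, -0.73) on the other.

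The neuronal cytoskeleton differed in the same mixed way. Neurofilaments are the struts that set axon calibre, and the heavy chain is the last to appear. Nefh, the heavy chain, was 18.3, 26.9 (11.2 to 42.7) and 61.0 (29.1 to 93.0) FPKM at P2, P6 and P10 (1.15 ± 0.56), the medium chain Nefm 85.6 and 128 (0.58 ± 0.89) and the light chain Nefl 194 and 246 (0.35 ± 0.76) at P6 and P10. The microtubule protein tau, Mapt, was 142, 86.7 and 47.8 FPKM (-0.85 ± 0.59).

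Tubulin isotypes ranged from Tubb4a, the isotype of oligodendrocytes and mature neurons, at 34.9, 56.9 and 141 FPKM at P2, P6 and P10 (1.29 ± 0.44), to Tubb5 at 388, 259 and 164 (-0.66 ± 0.46). Tuba1a, the main alpha tubulin of young neurons, was 1040, 642 and 454 FPKM (-0.50 ± 0.50), and it moved from rank 3 at P2 to rank 5 at P6 and rank 10 at P10. Tubulin isotypes are near-identical in sequence, so the division of reads between them is uncertain.

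Genes of growth cones and growing neurites were lower at P10 almost throughout. Of 26 genes 25 had a ratio below 0, with a median of -0.40, and 2 were at least 2-fold lower, against 0.281% of protein-coding loci. Cxadr, an adhesion protein of developing neurons that serves as the coxsackievirus and adenovirus receptor (chromosome 16, 78301489 to 78359774, GRCm38, plus strand), was 77.6, 50.0 (28.9 to 71.1) and 14.7 (8.59 to 20.8) FPKM at P2, P6 and P10. Its intervals at P6 and P10 did not overlap. It fell by 1.70 on the log2 scale with an SE of 0.42 (adjusted p 0.0474), a call lost under 4 other settings, such as a pseudocount of 0.1, where the adjusted p was 0.0581.

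Dcx, the doublecortin of migrating and young neurons, was 46.0, 23.5 (6.06 to 40.9) and 9.26 (3.07 to 15.4) FPKM (-1.26 ± 0.69). Dpysl3, a collapsin response mediator, was 172, 114 and 57.0 (-0.98 ± 0.51), and Gap43, the growth-associated protein, was 244, 149 and 83.3 (-0.83 ± 0.47). The actin-binding peptide Tmsb10 was 534, 409 and 216 FPKM (-0.92 ± 0.42) and the surface protein Cd24a 103, 58.2 and 30.2 (-0.92 ± 0.41). Stmn2, Stmn3, Marcks and Dpysl2 were nearly level between P6 and P10, with ratios from -0.28 to -0.04. The family's share of the summed FPKM of protein-coding loci was 2.09% at P2, 1.67% at P6 and 1.15% at P10.

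Transcription factors of immature neurons were lower in 16 of 22 cases, with a median of -0.33. Neurod6 was 9.56, 5.93 and 2.36 FPKM at P2, P6 and P10 (-1.04 ± 0.44), Sox11 18.6, 10.2 and 5.01 (-0.90 ± 0.37), and Zic1 21.3, 12.7 and 7.996 (-0.61 ± 0.42). Ebf3 (38.9 to 25.8 FPKM, -0.58) and Meis2 (24.3 to 15.5, -0.62) followed. A further pair of genes of early growth were at least 2-fold lower, the imprinted proteolipid Nnat at 291, 196 and 81.8 FPKM (-1.25 ± 0.50) and the binding protein Igfbp5 at 50.9, 40.0 and 18.8 (-1.05 ± 0.41). The RNA regulators of neurons, a list of 26, had a median of -0.16, with Qk, which stabilises myelin messages, at 158 and 265 FPKM (0.74 ± 0.64) and Mbnl2 at 18.9 and 32.0 (0.73 ± 0.42) on the other side.

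Histone genes had the lowest median of the lists with at least 5 such genes. Replication-dependent histones supply new chromatin in S phase, and their messages lack a poly(A) tail, so they are seen here because the libraries were made from total RNA depleted of ribosomal RNA. Of 48 genes 47 were lower at P10, with a median of -0.70, and 8 were at least 2-fold lower. Another, Hist1h2ba, lay outside the list, so 9 of the 22 protein-coding loci past that limit were histones. None was called. Of the 48 genes 6 reached 5 FPKM only at P6, so their direction followed from the limit of 5 FPKM.

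The difference was spread over the classes of histone. The median was -0.50 over 5 H1 genes, -0.83 over 10 H2A genes, -0.67 over 13 H2B genes, -0.87 over 10 H3 genes and -0.67 over 10 H4 genes. The median FPKM of the H2A genes was 12.95 at P2, 16.7 at P6 and 8.30 at P10. Among the better measured genes Hist1h3b was 18.7, 23.4 (11.3 to 35.4) and 10.7 (4.65 to 16.8) FPKM (-1.06 ± 0.53) and Hist1h2bb 25.2, 34.6 and 16.8 (-1.001 ± 0.53). The more abundant Hist1h4h was 82.7, 83.8 and 55.2 (-0.59 ± 0.43), and Hist1h2bc alone was above 0 (0.20). Histone genes of a class are near-identical, so single genes are uncertain and the class medians are the better guide.

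Cell cycle genes moved less than histones. Of 19 genes 12 had a ratio below 0, with a median of -0.19. The count below 0 rests partly on the limit, since 7 of the 19 reached 5 FPKM only at P6 and 2 only at P10. The direction of those genes followed from the limit, and 10 genes reached it in both groups. The replication factors Mcm6 (5.40 to 3.42 FPKM, -0.53) and Pcna (22.8 to 18.1, -0.32) and the cyclin Ccna2 (8.05 to 6.21, -0.33) were lower. Anln, the highest of the list at 0.97, is also on the myelin list. The remaining cell cycle genes of the list, 34 with a locus of their own, lay below 5 FPKM.

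Protein synthesis and energy genes moved by small amounts in many genes at once. Of 58 cytosolic ribosomal protein genes 54 were lower at P10, with a median of -0.27, none reached 1.5-fold, and their share of the summed FPKM of protein-coding loci was 6.43%, 5.67% and 4.30% at P2, P6 and P10. Examples are Rps27 at 332 and 247 FPKM (-0.42) and Rpl35 at 111 and 79.2 (-0.49). Nuclear genes of oxidative phosphorylation had a median of 0.09 over 72 genes, with 51 above 0, close to the 61.1% of all protein-coding loci. Glycolysis and lactate genes had a median of 0.21 over 22 genes, led by the kinase Pdk2 (6.33 to 12.7 FPKM, 0.91) and the lactate carrier Slc16a1 (23.4 to 39.2, 0.72), with the phosphofructokinase Pfkp lowest (94.5 to 56.3, -0.74). Lysosomal and autophagy genes had a median of 0.23, with Npc1 and Npc2, which export cholesterol from lysosomes, at 0.64 and 0.69.

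Hormone-responsive and clock genes were mixed. Of 14 thyroid- and glucocorticoid-responsive genes 11 had a ratio above 0 (median 0.35), with Mbp, which this list shares with the myelin list, the highest and Cdkn1a the lowest (-0.51). Of 15 clock genes 10 had a ratio above 0 (median 0.26), close to the 61.1% of all protein-coding loci, and the core factors Arntl (-0.16) and Clock (-0.07) lay below 0. The thyroid- and glucocorticoid-responsive factor Klf9 was 3.64, 5.24 (3.01 to 7.47) and 12.2 (7.37 to 16.9) FPKM at P2, P6 and P10 (1.08 ± 0.38), and Tsc22d3, a glucocorticoid target, was 22.6, 22.8 and 36.9 (0.67 ± 0.41). The clock output factors Dbp (3.24 to 6.93 FPKM, 0.90) and Per3 (5.48 to 9.97, 0.76) had intervals that reached 0. The time of day of collection is not given in the labels.

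Of the 123 protein-coding loci at least 2-fold higher, 68 were in none of the 62 gene lists. Gpd1, the glycerol phosphate dehydrogenase that links glycolysis to lipid synthesis (chromosome 15, 99717515 to 99725005, GRCm38, plus strand), was 2.31, 3.42 (1.53 to 5.31) and 16.4 (8.99 to 23.8) FPKM at P2, P6 and P10 and rose by 1.97 ± 0.44 (adjusted p 0.0124). Sec14l5, a lipid-binding family member, was 0.227, 1.39 and 6.11 FPKM and rose by 1.57 ± 0.36 (adjusted p 0.0124). Neither gene was in a list, and both are named because they were called.

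Cryab, the small heat shock protein alphaB-crystallin, was 4.60, 7.16 and 30.9 FPKM (1.964 ± 0.59, adjusted p 0.464). The ferritin heavy chain Fth1, which stores iron, was 108, 119 and 288 FPKM (1.26 ± 0.42) and moved from rank 165 at P6 to rank 26 at P10. Pdlim2 (7.91 to 28.5 FPKM, 1.73), the deiminase Padi2 (3.89 to 13.8, 1.60), the microtubule proteins Map7 (5.72 to 17.2, 1.44) and Tppp (29.2 to 69.1, 1.22), and Enpp2, autotaxin (46.9 to 122, 1.36), were among the others. On the lower side the lissencephaly-related enzyme subunit Pafah1b3 was 44.9, 24.9 and 11.1 FPKM (-1.09 ± 0.49), and shootin, Shtn1, an axon polarity protein, was 20.1, 14.0 and 6.44 (-1.01 ± 0.39).

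**Figure D4:**
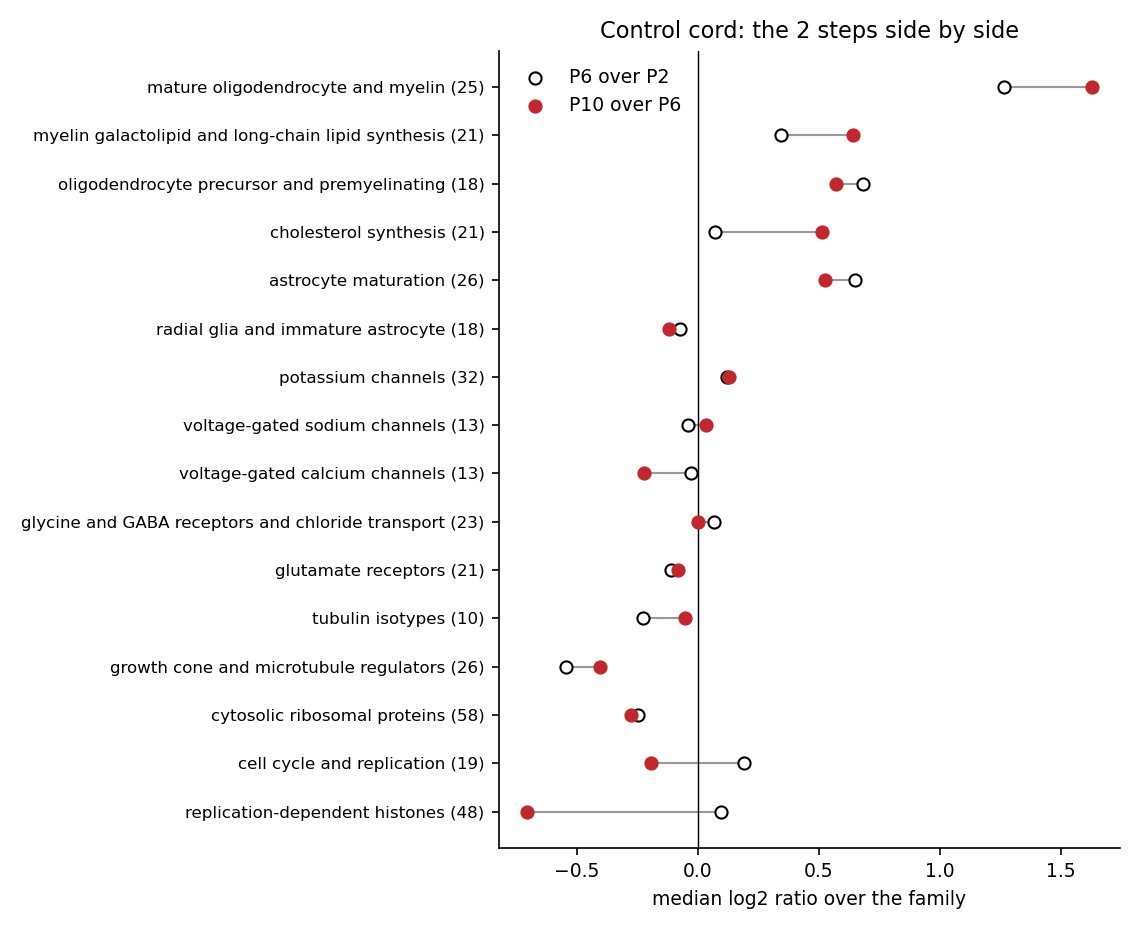
Median log2 ratio (x axis) of 16 gene families in control cord for the step from P2 to P6 (open circles) and from P6 to P10 (filled circles), with the number of genes in brackets. Both steps use the P6 group. Cholesterol genes sit near 0 in the earlier step and at 0.52 in the later one, and histone genes at 0.10 and then -0.70.

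Family medians for the earlier and the later step are set side by side. Myelin genes had medians of 1.26 from P2 to P6 and 1.63 from P6 to P10, astrocyte genes 0.65 and 0.53, and growth cone genes -0.54 and -0.40. Histone genes had medians of 0.10 and then -0.70, and cell cycle genes 0.19 and then -0.19. In the direct test of the later minus the earlier step no protein-coding gene was called (0 of 7843 loci at 5 FPKM or more, 5 of 11966 at an unadjusted p under 0.05), and the called loci over all classes were 2 higher (0.00975%) and 8 lower (0.039%). At least 2-fold increases among the protein-coding loci numbered 59 (0.752%) from P2 to P6 and 123 from P6 to P10, and decreases of that size 7 (0.0893%) and 22. The loci were admitted by their level at P6 or P10, 41 of the 123 through P10 alone, while loci high only at P2 were left out, so these counts do not compare the size of the steps.

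The same interval was then read in the groups labelled SMA at P6 and P10, which share no library with the controls. The Smn1 value of the group labelled SMA P10 limits this comparison, and without that group there is no SMA step to set beside the control one. Over the 7843 protein-coding loci the control and SMA log2 ratios had a Pearson correlation of 0.502 and a Spearman correlation of 0.407 across genes, which are not independent. Of the 123 loci at least 2-fold higher in control, 115 were also above 0 in SMA, with a median of 0.49 there against 1.21 in control, and 12 passed 2-fold in SMA. Over all protein-coding loci 12 (0.153%) were 2-fold higher and 14 (0.179%) 2-fold lower in SMA. The loci were chosen for a large control ratio, and part of the smaller ratio elsewhere follows from that choice.

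**Figure D5:**
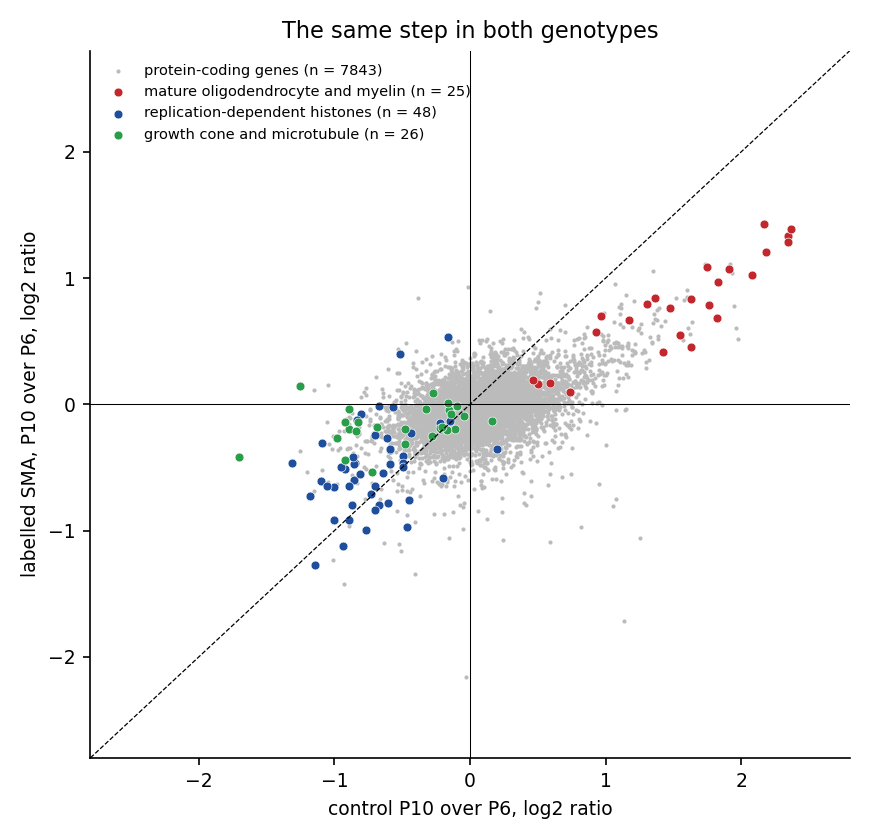
Log2 ratio of P10 over P6 in control cord (x axis) against the groups labelled SMA (y axis) for protein-coding genes, with 3 families coloured. The dashed line marks equal ratios. All 25 myelin genes lie above 0 on both axes and below the dashed line, and 22 of the 26 growth cone genes lie above it.

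By family the myelin median was 1.63 in control and 0.78 in SMA, the astrocyte median 0.53 and -0.03, the cholesterol median 0.52 and 0.15, and the growth cone median -0.40 and -0.18. Ribosomal protein genes had the same median to within 0.02, -0.27 and -0.26, and histone genes -0.70 and -0.50. Mal was 35.4 FPKM at P6 and 94.5 at P10 in SMA (1.39), and Cxadr 49.4 and 36.8 (-0.42). In the test of the control step minus the SMA step no protein-coding gene was called (0 of 12056, 11 at an unadjusted p under 0.05), 3 loci of other classes were above 0 (0.0143%) and 1 below (0.00475%), and the difference for Mal was 0.98 ± 0.65. Markers of tissue around the cord also moved in SMA, with Prx at 5.75 and 3.61 FPKM and Col1a1 at 37.2 and 17.0, and their part was not tested.

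Long noncoding RNAs had a median of -0.06 over 484 loci. Malat1, an abundant nuclear RNA, was 1600 and 2343 FPKM at P6 and P10 (0.55 ± 2.24). Dancr rose by 0.72 ± 0.09 (adjusted p 1.75e-12), from 97.2 to 160 FPKM, but only 21.8 and 25.7 estimated fragments lay behind these values, whose counting error alone, at 21.4% and 19.7%, exceeds the 5.03% and 3.49% that the deposited intervals give. With the deposited counts and their variance its ratio was 0.23 ± 0.68. The other called long noncoding locus, the predicted gene Gm17494, fell from 24.96 to 1.95 FPKM (adjusted p 0.0478), while its estimated fragments were 107 and 101. Of the 181 small RNA loci at 5 FPKM or more 72 had an interval of no width and could not be tested, and short genes are poorly measured by such libraries.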

How the data were processed

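RNA was extracted from whole spinal cords and sequenced as ribosomal-RNA-depleted, strand-specific libraries, per the labels' protocols. The FPKM values and their lower and upper bounds were made by the authors with Cuffdiff, per the file headers, as 1 value per group of 3 libraries. The submitters' processing notes also name Bowtie2 2.2.4, TopHat2 2.1.1 and Cufflinks 2.2.1 with the GRCm38 build. The strand setting of the counting is not given in the sources used here, so genes that overlap on opposite strands may be mixed. Estimated counts and their variances were deposited for the same groups, and their near-equal totals show that they had been scaled between groups.

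From these values the log2 ratio with a pseudocount of 1 was computed for each locus. The standard error of each group was the distance from the FPKM to its upper bound divided by 1.96, carried to the log2 scale. This reads the bound as that of the group value, and the alternative reading is in the closing section. The two-sided z test covered loci whose highest FPKM among the groups compared reached 1 and used Benjamini-Hochberg adjustment at 0.05. Loci whose interval had no width could not be tested and were left out, a departure from the planned test. P-values rest on the authors' model of the spread between libraries that may be technical replicates. The test called 2 of 15766 unchanged loci on data simulated with the same standard errors, so this count does not check those errors.

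The genes and the 62 gene lists were chosen with earlier results of these data known. The named genes are, by rule, the 20 highest and 20 lowest ratios, the called genes, and in each list the 4 highest, the 4 lowest and the 2 most abundant, beside a fixed set. Other genes were named for their known role after their values were seen, such as Cnp, Cers2, Enpp2 and Fth1. Gene classes and coordinates are from GENCODE M21, promoters from RefSeq. Computations ran in Python 3.11.15 with scipy 1.17.1, pandas 2.3.3 and numpy 2.4.6, and plots were drawn with matplotlib 3.10.9. Some genes of the lists are counted but not reported here by name.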

Additional observations from a re-analysis of the deposited data

Results flagged for a closer look

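The noncoding RNA Dancr was flagged because its step from P6 to P10 differed between control and the groups labelled SMA. The control step minus the SMA step was 0.86 ± 0.16 on the log2 scale, with an adjusted p of 0.000677 by the z test. Dancr was 97.2 and 160 FPKM in control and 50.4 and 45.7 FPKM in the groups labelled SMA at P6 and P10. In control 21.8 and 25.7 estimated fragments lay behind these values, and the ratio of the counts was 1.18 where that of the FPKM was 1.65. The comparison also rests on the group labelled SMA P10, whose Smn1 level of 2.82 FPKM goes against its label.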

How the results depend on the processing

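No paired analysis was possible because the deposited columns hold 1 pooled value per group, and for the same reason no library could be left out. The number of loci called between P6 and P10 in control was 22. It was 238 when the deposited interval was read as that of a single library, 14 with the deposited counts and variances, 55 by intervals that do not overlap and 9 when protein-coding and long noncoding loci alone were tested. Of protein-coding loci 11 were called, against 168 with the single-library reading and 35 by non-overlap. The later minus the earlier step gave 10 calls, against 26 with the single-library reading, 1 with the counts and 2 among protein-coding and long noncoding loci. The control minus SMA step gave 4 calls, against 14, 0 and 1 under the same settings. Protein-coding loci at least 2-fold lower numbered 22, against 34 with a pseudocount of 0.1 and 36 with none. Loci of any class at least 2-fold lower numbered 80, against 51 with the counts and 30 among protein-coding and long noncoding loci. No call or count reversed direction.

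The family medians moved little, and those that changed sign lay between -0.04 and 0.05, such as the sodium channels at 0.03, which had -0.08 with the counts. Cldn11 and Gjb1 lost their calls with a pseudocount of 0.1 or none, without the filter on low values, after centring on the median of 0.06, and among protein-coding and long noncoding loci. Cxadr lost its call under the same settings except centring. Scn4b, Kcnj10 and Tspan2 gained calls when loci at 5 FPKM or more were tested, a limit that Scn4b passed only through P10. Short genes, histone copies and the widest intervals, that of Mbp among them, limit what depth can show.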

Other observations

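For the lists given here, 61.1% of all protein-coding loci lay above 0, with a median of 0.07. The excitatory neuron list had 10 of 14 genes below 0, with a median of -0.21. Of 20 genes of motor neurons and cholinergic transmission 14 lay above 0, with a median of 0.16, and 18 lay within 1.5-fold. The choline acetyltransferase gene Chat, below the limit of 5 FPKM, was 2.34 FPKM at P6 and 3.67 at P10. The chaperones of the endoplasmic reticulum and the unfolded protein response had 21 of 24 genes above 0 and a median of 0.17. Axon guidance genes had 22 of 35 below 0 and a median of -0.17, with the netrin receptor Unc5b at the top of the list with 1.104. Targets of p53 had 12 of 16 above 0, with a median of 0.28.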
